A study of Rattus norvegicus with 6 samples.

Results

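Keratins are the intermediate filament proteins of epithelial cells, and 39 keratin genes were described here out of 15037 genes measured in rat tracheal basal cells grown in either of 2 culture media. The members were all genes whose symbol on the array platform is Krt followed by a number and at most 1 letter, with the brightest probe set kept where a gene had several. Of the 39, 19 encode type I (acidic) and 20 type II (basic) keratins. The RefSeq gene table lists 54 keratins by the same rule, and the other 15, among them Krt5, Krt6a, Krt10 and Krt16, were not analysed here.

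The cells were scraped from the tracheal lining of wild-type male rats of the Sprague Dawley strain (12 weeks of age, body weight 370 ± 39 g), with 3 rats pooled for each of 3 cell lines. Each line was divided between the media BEGM (bronchial epithelial growth medium) and EpiX, and RNA was taken on day 8. There was 1 array per culture, so 3 arrays per medium, named here by the sample number in the source label. The titles differ from it: they give the arrays of number 1 a shared 1, those of number 2 a shared 3 and those of number 3 none, so the titles group the arrays as the numbers do but no label says that a number stands for a line. Results are from a fit without the number, and values with the number as a block are given where they change a call. All groups share the strain, sex, age and pooling, and p-values measure the spread between these cultures of pooled rats.

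A keratin filament is built from equal parts of a type I and a type II chain, so the genes are used in pairs that mark the state of the cell. Basal cells of stratified and airway epithelium use Krt5 with Krt14 or Krt15, single-layered (simple) epithelium uses Krt8 with Krt18 or Krt19, and hillock cells of the airway, a stratified and rapidly renewed cell type, use Krt4 with Krt13. Krt6 chains with Krt16 or Krt17 are induced by wounding, Krt1 and Krt2 with Krt10 mark cornifying epidermis, and a further set is restricted to the hair follicle. The type II genes and Krt18 lie in a cluster on rat chromosome 7, and the other type I genes in a cluster on chromosome 10.

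The values are the authors' deposited signals on a log scale taken as base 2, so a difference of 1 is a 2-fold change. Probe sets differ in how brightly they report their gene, so levels were compared between arrays and not ranked between genes. The only reference set beside a level was the array's own background probe sets, 23 per array, whose values ran from 3.12 to 6.99 with array medians of 5.77 to 6.13. These values span a wide range, so the median is a reference and not a detection limit for a given gene. Of the 39 keratins, 19 lay under the median of their array on all arrays, 3 on some and 17 on none, and 38.6% of all genes lay under it on all arrays. The median over all genes was 6.98 to 7.13 on the BEGM arrays and 6.90 to 6.93 on the EpiX arrays. BEGM array 1 stood apart from its group: across genes it correlated at 0.982 to 0.985 with the EpiX arrays, at 0.986 with BEGM array 2 and at 0.977 with BEGM array 3. Results that rest on it are therefore given with and without it. It was singled out after the values were seen, as the BEGM array nearest to EpiX. Leaving it out widens the difference of genes for which it lies near EpiX, and all genes called went from 869 to 2089. Adjusted p-values without it are therefore likely too small and only describe how far a result rests on it. The label of basal cells was checked on the transcription factor Tp63, which lay at 12.23 to 12.93 in BEGM and 14.62 to 14.80 in EpiX, and on Krt14, at 16.38 or more on every array, both above all background probe sets. The surface marker Ngfr, at 4.69 to 5.37, lay under the background median on every array.

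EpiX cultures had more Krt15 and less Krt18 than BEGM cultures, and these were the keratins that passed the test. Of the 39 keratins, 1 was called higher in EpiX, beside 2.63% of all genes, and 1 was called lower, beside 3.15%, or 5.78% in either direction (limma, Benjamini-Hochberg adjusted p under 0.05 over all 15037 genes). At an unadjusted p under 0.05 there were 9 keratins, against 22.5% of all genes. Every EpiX array lay above every BEGM array for 6 keratins, beside 13.5% of all genes, and below for 4, beside 14.5%. With the number as a block, 4 keratins were called higher (Krt13, Krt15, Krt23 and Krt4), beside 3.94% of all genes, and 2 lower (Krt18 and Krt75), beside 4.39%, or 8.33% in either direction. Without the block, the keratins were called about as often as genes in general, and the large differences lay in a few of them. The median difference was 0.16 over the 39 keratins, 0.09 over type I, 0.19 over type II and 0.0022 over all genes. Of the 39 differences 30 were above 0, beside 50.2% of all genes. The sign tells little for the 19 keratins under the background median on all arrays. Centring the arrays on their medians moved the median difference of all genes to 0.13 and that of the keratins to 0.28, with 33 keratins and 66.0% of all genes above 0.

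**Figure D1:**
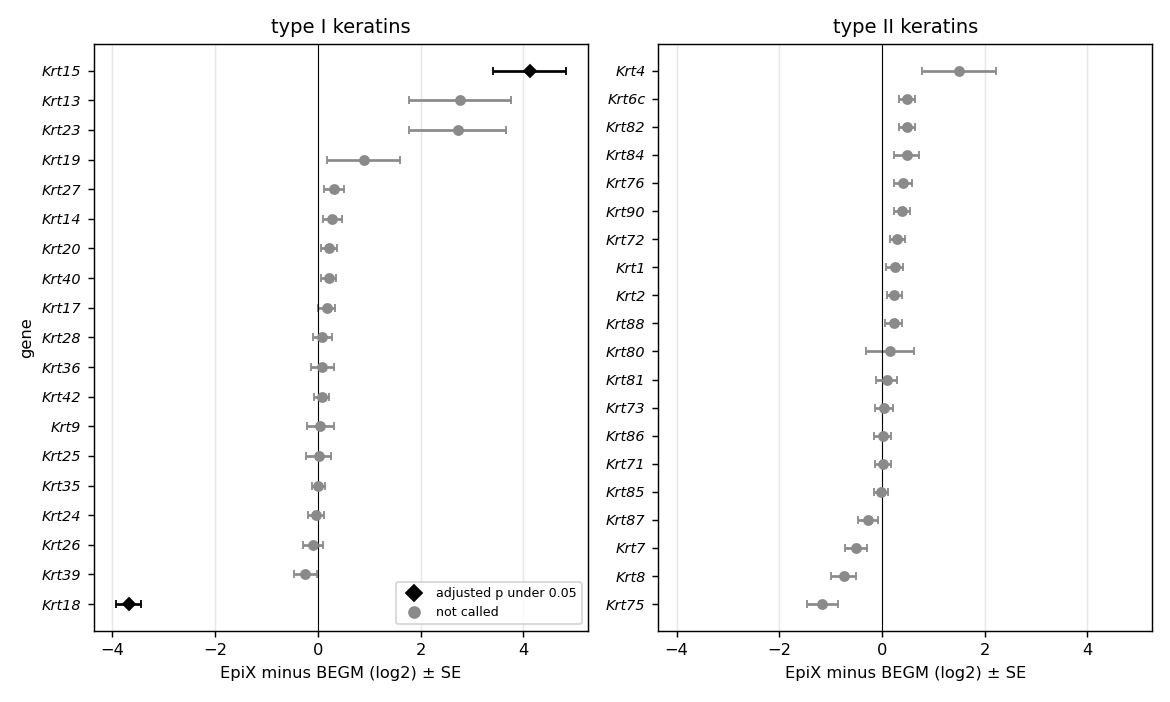
EpiX minus BEGM difference (log2, points with SE, 3 arrays per medium) of the 19 type I and 20 type II keratins, sorted by size; black diamonds are genes with an adjusted p under 0.05. Krt15 (4.12) and Krt18 (-3.68) are the called genes, and the type II differences lie between -1.16 and 1.498.

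Of the basal keratins, Krt15 rose and Krt14 did not pass the test. Krt15, a type I chain of basal cells (probe set TC1000003782.rn.2), had signals of 12.15, 11.43 and 9.99 on BEGM arrays 1, 2 and 3, against 16.34, 15.53 and 14.06 on EpiX arrays 1, 2 and 3. Every EpiX array lay above every BEGM array, although the arrays of each medium spread over 2.16 and 2.28. Krt15 rose by 4.12 ± 0.71 (SE, n = 3 per medium), or 17.4-fold, with a limma adjusted p of 0.0229. The limma call was lost without BEGM array 2 (adjusted p = 0.095), without EpiX array 1 (0.0776) and without EpiX array 2 (0.113). In these settings all genes called went from 869 to 192, 170 and 101. The difference stayed between 3.52 and 4.75 whichever single array was left out. Between arrays of the same number the difference of Krt15 was 4.20, 4.10 and 4.07. Krt14, the main basal type I keratin, was at 16.85, 16.38 and 16.60 in BEGM and 16.75, 16.79 and 17.13 in EpiX. The groups overlapped and the difference of 0.29 ± 0.18 (SE) did not pass (adjusted p = 0.423).

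Neither of the measured injury-induced keratins passed the test. Krt17, a type I keratin of activated epidermis and appendages, was at 17.90, 17.49 and 17.54 in BEGM and 17.79, 17.95 and 17.72 in EpiX, a difference of 0.18 ± 0.16 (SE; adjusted p = 0.593). EpiX array 2 was the highest and BEGM array 2 the lowest, and the groups overlapped. Krt6c, a type II keratin for which RefSeq gives Krt6a as a synonym, was at 8.17, 8.04 and 8.22 in BEGM and 8.52, 8.84 and 8.55 in EpiX. The groups did not overlap, but the difference of 0.49 ± 0.15 (SE) did not pass (adjusted p = 0.113). Its probe set (TC0100004380.rn.2) carries another chromosome code than those of the other type II keratins apart from Krt7. The Krt7 probe set (TSUnmapped00000084.rn.2) is labelled as unmapped, and what it reads was not tested. Close copies of Krt6 exist, and which of them the Krt6c probe set reads is not known here.

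**Figure D2:**
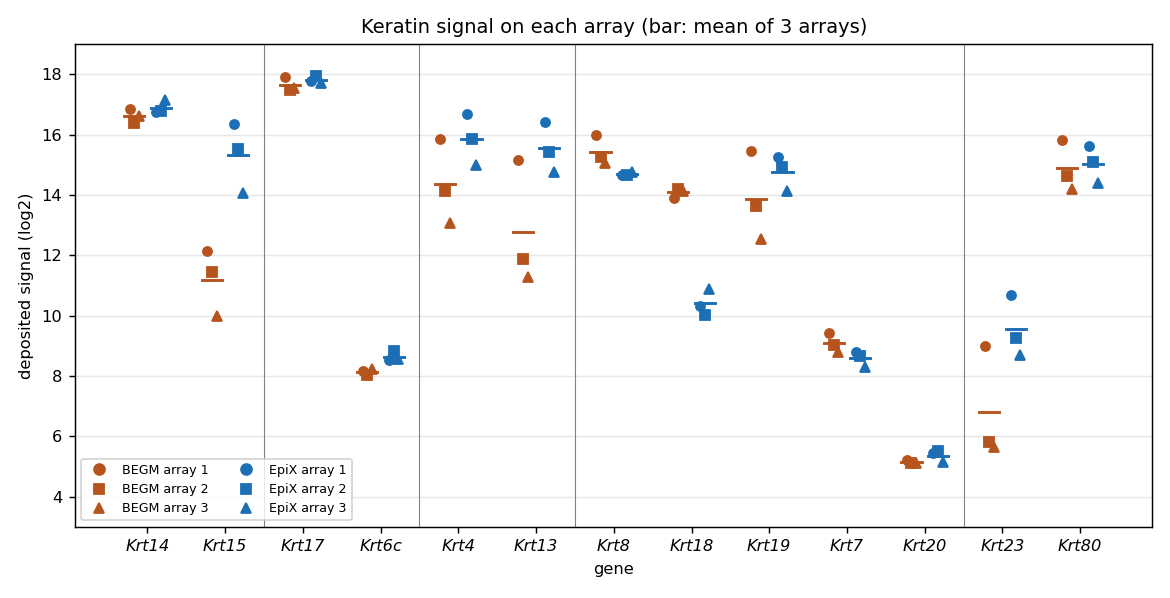
Signal (log2) of 13 keratins on each of the 6 arrays, with a bar at the mean of 3 arrays; from left to right the basal, injury-induced, hillock and simple keratins and, last, Krt23 and Krt80. Krt15 is higher and Krt18 lower on all EpiX arrays, and for Krt13 and Krt23 BEGM array 1 lies above the other BEGM arrays.

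The hillock keratins were higher on the EpiX arrays than on BEGM arrays 2 and 3, with BEGM array 1 among the EpiX values. Krt13, the type I chain, had signals of 15.17, 11.88 and 11.28 in BEGM, against 16.43, 15.42 and 14.77 in EpiX. BEGM array 1 lay above EpiX array 3, so the groups overlapped. The difference was 2.76 ± 0.99 (SE) and did not pass (adjusted p = 0.16), but it passed with the number as a block (0.0284). Between arrays of the same number it was 1.26, 3.55 and 3.48. Without BEGM array 1 it was 3.96, or 15.6-fold, with an adjusted p of 0.00313. Krt4, its type II partner, was at 15.85, 14.13 and 13.08 in BEGM and 16.69, 15.86 and 15.004 in EpiX, where BEGM array 1 again fell among the EpiX arrays. The difference of 1.498 ± 0.72 (SE; adjusted p = 0.284) also passed with the block (0.026), being 0.84, 1.73 and 1.92 between arrays of the same number. It became 2.25 without BEGM array 1, with an adjusted p of 0.0327. For both genes the BEGM arrays spread more widely than the EpiX arrays, with an SD of 2.09 against 0.83 for Krt13 and of 1.40 against 0.84 for Krt4.

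Of the 5 simple-epithelial keratins, Krt18 fell and the other 4 did not pass. Krt18, the type I chain of simple epithelium (probe set TC0700001888.rn.2), had signals of 13.91, 14.20 and 14.13 in BEGM, against 10.31, 10.005 and 10.89 in EpiX. The arrays of each medium lay close together and far from those of the other. Krt18 fell by 3.68 ± 0.24 (SE) on the log2 scale, which is 12.8-fold, with an adjusted p of 0.00161. The call held without any single array (adjusted p of 0.000601 to 0.0191) and was lost without both arrays of number 2 (0.145), a setting in which no gene was called by limma and 1582 genes had an unadjusted p under 0.05. RefSeq lists 7 pseudogenes or copies of Krt18, and whether its probe set also reads a copy was not tested.

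Krt8, the type II partner of Krt18, was at 15.98, 15.26 and 15.05 in BEGM and 14.65, 14.65 and 14.76 in EpiX. All EpiX arrays lay below all BEGM arrays, but the difference of -0.74 ± 0.25 (SE) did not pass (adjusted p = 0.137). Without BEGM array 1 it was -0.47 (adjusted p = 0.11). Krt7, a type II keratin of simple and ductal epithelium, was at 9.44, 9.02 and 8.80 in BEGM and 8.78, 8.67 and 8.30 in EpiX, a difference of -0.50 ± 0.22 (SE; adjusted p = 0.232). The lowest BEGM array and the highest EpiX array of Krt7 were nearly equal. Krt19, a type I keratin without a tail domain that also occurs in basal cells, was at 15.47, 13.63 and 12.54 in BEGM and 15.24, 14.93 and 14.14 in EpiX. BEGM array 1 was the highest of all 6 arrays. The difference of 0.89 ± 0.70 (SE; adjusted p = 0.522) became 1.69 without that array, with an adjusted p of 0.0423. Krt20, a type I keratin of gut and urothelium, lay at 5.10 to 5.51, under the background median on every array, and did not pass (0.22 ± 0.15, SE; adjusted p = 0.465).

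**Figure D3:**
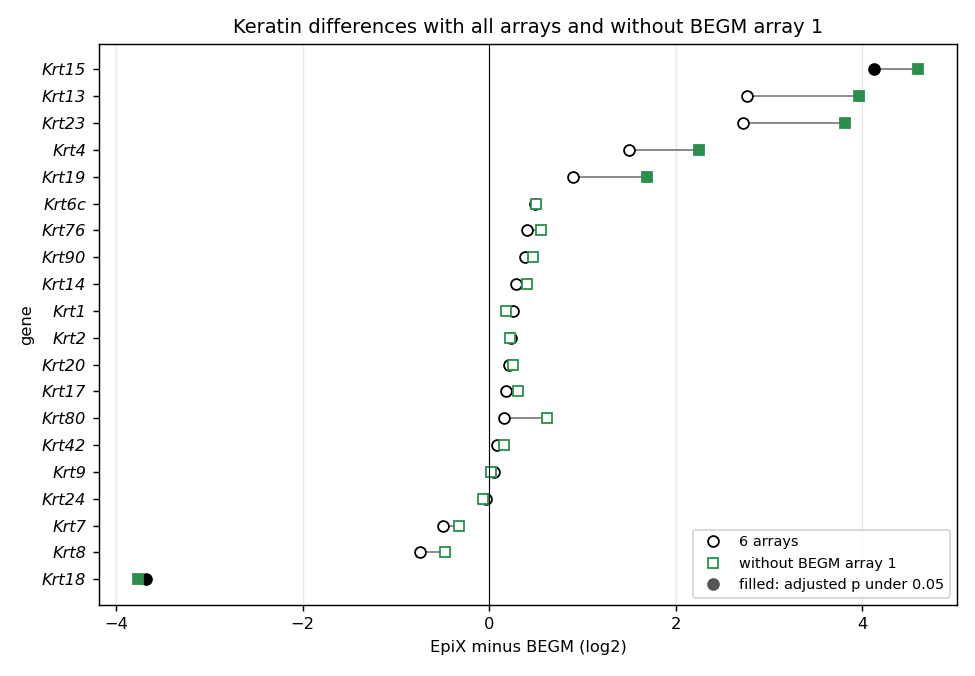
EpiX minus BEGM difference (log2) of the 20 keratins outside the hair follicle groups, with all 6 arrays (circles) and without BEGM array 1 (squares); filled symbols have an adjusted p under 0.05. Krt13, Krt23, Krt4 and Krt19 move to the right and pass without that array, while Krt18 stays at -3.77.

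Without BEGM array 1, 5 keratins were called higher (Krt13, Krt15, Krt19, Krt23 and Krt4), beside 6.57% of all genes, and Krt18 alone was called lower, beside 7.32%. The share of genes for which BEGM array 1 lay nearer to the EpiX mean than to the other BEGM arrays was 53.2% over all genes, and it was so for 20 of the 39 keratins. The keratins and genes in general were thus alike in this count.

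Among the other epithelial keratins, Krt23, a type I keratin that can be induced in epithelial cells, also had BEGM array 1 among the EpiX values. Its signals were 8.996, 5.82 and 5.65 in BEGM, against 10.67, 9.27 and 8.68 in EpiX, so BEGM array 1 lay above EpiX array 3. Its difference of 2.72 ± 0.95 (SE; adjusted p = 0.15) passed with the number as a block (0.0159) and became 3.81 without BEGM array 1 (adjusted p = 0.00585). BEGM array 3 lay under its background median and BEGM array 2 just above it, so the BEGM level is near background there. With the value under the median raised to it, the difference was at least 2.64 with all arrays and at least 3.69 without BEGM array 1. Krt80, a type II keratin of many epithelia, was at 15.80, 14.64 and 14.18 in BEGM and 15.61, 15.09 and 14.39 in EpiX. Its arrays differed more within a medium than between the media (0.16 ± 0.47, SE; adjusted p = 0.89). Krt90 (0.38 ± 0.16, SE) was a little higher on all EpiX arrays without passing, and Krt42 and Krt24 differed by 0.08 and -0.03.

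Of 5 keratins listed for the cornifying epidermis, 4 were measured and 0 were called, beside 5.78% of all genes. Krt1 was at 4.59 to 5.003 in BEGM and 4.89 to 5.12 in EpiX, and Krt2 at 5.02 to 5.13 and 5.17 to 5.51. Krt9, of palm and sole skin, differed by 0.05 ± 0.26 (SE), and Krt76, of the oral lining, by 0.41 ± 0.18 (SE; adjusted p = 0.235). All 4 differences were above 0, between 0.05 and 0.41. Krt1 and Krt2 lay under the background median on every array, and Krt9 on 2 of the EpiX arrays.

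The 19 keratins of the hair follicle gave values of 3.48 to 9.25, and 0 of them were called, beside 5.78% of all genes. Their differences ran from -1.16 to 0.49 with a median of 0.04, and 15 of them lay under the background median on all arrays. Among the other 20 keratins 4 did so, namely Krt1, Krt2, Krt20 and Krt24. The difference of -1.16 was that of Krt75, a type II keratin of the companion layer of the hair follicle, at 8.72, 9.25 and 8.29 in BEGM and 7.16, 7.93 and 7.67 in EpiX. The groups of Krt75 did not overlap, but it did not pass (SE 0.30; adjusted p = 0.0733); it passed with the number as a block (0.0379). Krt82, of the hair cuticle, was next in size among those whose groups did not overlap, at 4.30 to 4.59 in BEGM and 4.78 to 5.12 in EpiX (adjusted p = 0.129), all under the background median.

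The proximal promoters of Krt18 and Krt8, which are neighbours in the RefSeq order yet had unequal differences, and of Krt4 and Krt23, whose means were higher in EpiX without passing, are shown to set the letters beside the values. Each is the 250 bases before the RefSeq start, read 5′ to 3′ on the gene's strand, on GRCr8: Krt18 at chr7:135035918-135036167, plus strand; Krt8 at chr7:135010340-135010589, minus strand; Krt4 at chr7:134930714-134930963, minus strand; and Krt23 at chr10:84946930-84947179, minus strand. Capitals mark matches on either strand, overlaps included, to 3 motifs. These are TATAAA, a core promoter element, then the GC box bound by Sp1, written GGGCGG, and the AP-1 site, written TGANTCA.
Krt18: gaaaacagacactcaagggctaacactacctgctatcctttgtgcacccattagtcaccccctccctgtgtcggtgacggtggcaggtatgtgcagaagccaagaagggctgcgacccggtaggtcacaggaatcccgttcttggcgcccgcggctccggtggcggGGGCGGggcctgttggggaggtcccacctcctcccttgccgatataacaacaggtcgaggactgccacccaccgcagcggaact
Krt8: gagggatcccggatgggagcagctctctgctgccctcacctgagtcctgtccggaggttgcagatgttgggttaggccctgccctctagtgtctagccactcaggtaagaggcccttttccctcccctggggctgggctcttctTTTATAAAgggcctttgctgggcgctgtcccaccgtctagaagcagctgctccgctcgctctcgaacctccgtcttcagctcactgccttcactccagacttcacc
Krt4: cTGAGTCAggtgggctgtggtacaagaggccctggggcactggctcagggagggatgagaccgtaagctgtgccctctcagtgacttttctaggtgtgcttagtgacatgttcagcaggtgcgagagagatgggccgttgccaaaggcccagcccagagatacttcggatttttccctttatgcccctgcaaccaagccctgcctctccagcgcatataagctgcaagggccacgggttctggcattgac
Krt23: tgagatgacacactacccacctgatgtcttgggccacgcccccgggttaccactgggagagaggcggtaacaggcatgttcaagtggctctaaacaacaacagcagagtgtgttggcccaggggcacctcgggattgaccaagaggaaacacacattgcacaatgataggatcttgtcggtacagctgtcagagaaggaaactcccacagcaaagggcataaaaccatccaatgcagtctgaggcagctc

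Krt18 held a GC box beginning 84 bases before the start and no TATAAA. Krt8 held TATAAA at 104 bases, with an overlapping match on the other strand at 106, and no GC box. Krt4 held TGAGTCA at 249 bases, and Krt23 held no match to the 3 motifs. Of the 39 keratins, 29 had a promoter in the RefSeq table. TATAAA was found in 15 of these 29 (51.7%), against 12.9% of all 33469 promoters of the same length. Outside the hair follicle groups it was found in Krt8, Krt20, Krt42 and Krt76 alone. The matches of Krt72 and Krt84 lay on the other strand, at 201 and 209 bases. Krt13, Krt14, Krt15, Krt17, Krt19 and Krt80 had no promoter in the RefSeq table, so the share leaves them out. GGGCGG was found in 4 (13.8%, against 30.5%) and TGANTCA in 1 (3.45%, against 6.34%). A match is a run of letters and not a measured binding site. No promoter was printed for Krt15.

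The partner chains were then set against each other within each array, as the type II signal minus the type I signal, which cancels any shift that both share. The starting offset depends on the probe sets and was not read, so only its change from BEGM to EpiX is given. Of 20 pairs listed, 10 were measured, and in 4 of these a partner lay under the background median on all arrays. Of the other 6, the media did not overlap in 4. Among these, Krt8 with Krt18 and Krt7 with Krt18 share the fall of Krt18 and are not separate results. No share over other gene pairs was computed to set beside this count. With 3 arrays against 3, the smallest p that an exact 2-sided permutation test can give is 0.1, so no pair could pass by that test. Krt8 shifted against Krt18 by 2.94 ± 0.43 (SE), or 7.65-fold toward the type II chain, and Krt7 against Krt18 by 3.18 ± 0.47. Against Krt19 the shift ran the other way, by -1.64 ± 0.68 for Krt8 and -1.39 ± 0.69 for Krt7, and the media overlapped in both.

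Krt4 shifted against Krt13 by -1.27 ± 0.47 (SE), toward the type I chain. On the EpiX arrays the offset of this pair lay within a narrow range of 0.23 to 0.43, and on the BEGM arrays it was 0.68, 2.25 and 1.80. Krt6c against Krt17 shifted by 0.31 ± 0.13. The pairs with a partner under the background median carry that partner's background: Krt8 and Krt20 (-0.96 ± 0.29), Krt1 and Krt9 (0.20 ± 0.32), Krt71 and Krt25 (-0.0019 ± 0.18) and Krt85 and Krt35 (-0.02 ± 0.04). Over the whole family, type I differences ran from -3.68 to 4.12 and type II differences from -1.16 to 1.498.

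**Figure D4:**
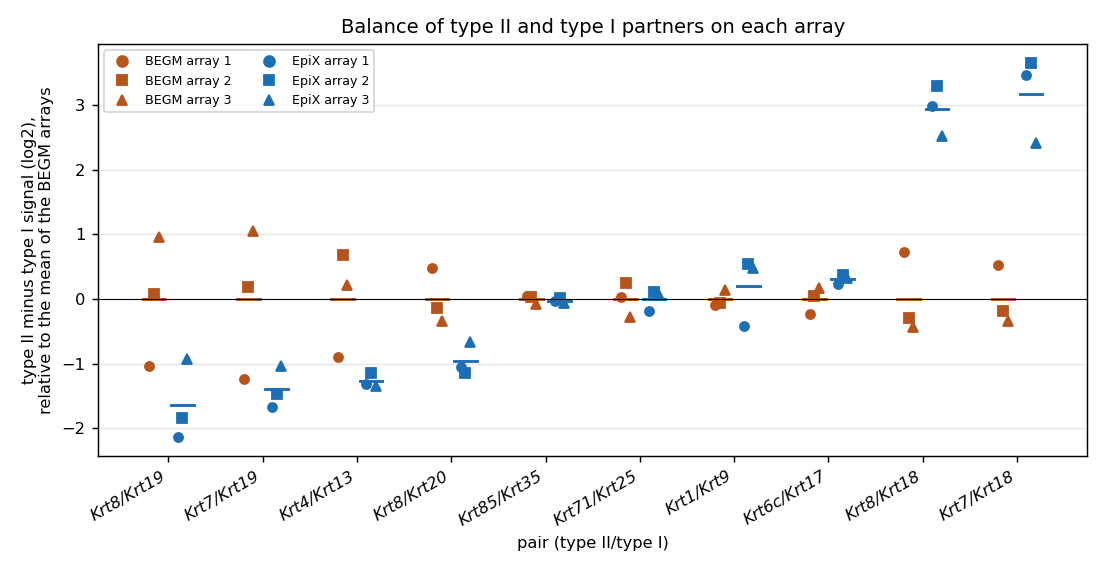
Type II minus type I signal (log2) on each array for the 10 measured partner pairs, set to 0 at the mean of the BEGM arrays, with a bar at each mean. The pairs of Krt18 lie 2.94 and 3.18 higher in EpiX, those of Krt19 shift by -1.64 and -1.39 with overlap, and the hair follicle pairs stay near 0.

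Several keratins kept the same order of arrays in both media. Krt4, Krt7, Krt13, Krt15, Krt19, Krt23 and Krt80 were each highest on array 1 and lowest on array 3 in BEGM and again in EpiX. That order held for 7 of the 39 keratins and for 6.66% of all genes, and any common order for 13 keratins and 21.6% of all genes. All 7 lay outside the hair follicle groups. Krt14 and Krt17 did not follow it: EpiX array 3 was the highest of all arrays for Krt14, and EpiX array 2 for Krt17. In RefSeq order on chromosome 10, Krt13, Krt15 and Krt19 are next to each other. Their differences were 2.76, 4.12 and 0.89, of which only that of Krt15 passed in the fit without the number. Krt36 before them and Krt9 after them differed by 0.09 and 0.05. Krt36 lay under the background median on all arrays and Krt9 on 2 of the EpiX arrays, so these 2 differences tell little.

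Markers of other cell types were read on the same arrays. Of 13 fibroblast markers listed 12 were measured, and 0 were called with all arrays, beside 5.78% of all genes. All 12 differences were below 0 (median -1.81). Twist1 and Twist2 lay under the background median on every array, and Dcn on 2 BEGM and all EpiX arrays, so the sign tells little for them. In 6 markers every EpiX array lay below every BEGM array, beside 14.5% of all genes. Without BEGM array 1, 7 were called lower, beside 7.32% of all genes, and with the number as a block 3, beside 4.39%. Their mean signal on BEGM arrays 1, 2 and 3 was 6.18, 7.14 and 9.31, against 5.29 to 5.80 in EpiX. Col1a1 was at 12.34 on BEGM array 3, at 7.44 and 8.32 on BEGM arrays 1 and 2, and at 5.14 to 5.82 in EpiX. BEGM array 3 was the lowest of all arrays for keratins such as Krt4, Krt13, Krt15, Krt19, Krt23, Krt76 and Krt80. Among the BEGM arrays it was also the lowest for Krt7, Krt8, Krt75, Tp63, Klf5, Epcam and Cdh1. On that array Krt14 was at 16.60 and Krt17 at 17.54, both above BEGM array 2, and Krt18, at 14.13, lay between the other BEGM arrays. The part of such cells in the keratin differences was not tested, and in bulk RNA fewer cells of a type and less RNA per cell cannot be told apart. Of 9 smooth muscle and cartilage markers 8 were measured and 2 fell, beside 3.15% of all genes. The means of these markers were 6.82 to 7.35 in BEGM and 5.66 to 5.77 in EpiX. The other lists read were leukocyte, endothelial and ciliated cell markers. The 8 leukocyte markers had means of 5.90 to 5.95 in BEGM and 5.87 to 5.995 in EpiX. Of these 1 was called lower, beside 3.15% of all genes. This marker, Cd74, lay under the background median on 2 BEGM and all EpiX arrays. With values under the median raised to it, its difference was -0.017. Of 7 endothelial markers 0 were called (4.91 to 5.05 and 4.44 to 4.62), and of 7 ciliated cell markers 0 (4.33 to 4.48 and 4.33 to 4.49). The share called over all genes was 5.78%.

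Tp63, Sox2, Klf5, Tfap2a and Cebpa, transcription factors of epithelial cells, rose in EpiX. Of 16 listed regulators 13 were measured, and 5 rose, beside 2.63% of all genes, 0 fell and 8 did not pass. The median difference was 1.27 against 0.0022 over all genes. All 13 differences were above 0, beside 50.2% of all genes. Of these, Tfap2c, Ovol2 and Cebpb lay under the background median on most arrays. Tp63, which maintains basal cells and their keratins, was at 12.93, 12.53 and 12.23 in BEGM and 14.71, 14.62 and 14.80 in EpiX, a rise of 2.15 ± 0.20 (SE; adjusted p = 0.00431). It stayed called without any single array. Sox2, a factor of the airway and its basal cells, rose by 2.14 ± 0.46 (adjusted p = 0.0464), Klf5, a factor of proliferating epithelium, by 1.54 ± 0.26 (0.0215) and Tfap2a, which acts on epidermal keratin genes, by 1.29 ± 0.16 (0.00876).

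The smallest of the 5 rises was that of Cebpa, a factor of differentiating cells, by 0.67 ± 0.14 (adjusted p = 0.0425), a call lost with the number as a block (0.0519) and with trended and robust variance (0.0916). Leaving out a single array other than BEGM array 1 ended the calls of Cebpa and Sox2 in each case, with adjusted p up to 0.179 and 0.169. The call of Klf5 was lost without BEGM array 2, EpiX array 1 or EpiX array 2 (up to 0.11), and that of Tfap2a without EpiX array 2 (0.0594). Klf4, of suprabasal cells, did not pass (1.27 ± 0.39, adjusted p = 0.116), and it passed without BEGM array 1 (0.00398). In that setting 9 regulators rose, beside 6.57% of all genes.

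Of 18 listed proteins that bind keratin filaments or anchor them to junctions, 10 were measured, with a median difference of 0.31. Of these 1 rose, beside 2.63% of all genes, 1 fell, beside 3.15%, and 8 did not pass. Fam83h, which organises keratin filaments, was at 11.05, 10.67 and 10.25 in BEGM and 11.75, 11.69 and 11.52 in EpiX. It rose by 1.00 ± 0.22 (SE; adjusted p = 0.0478), and the call was lost on leaving out any single array other than BEGM array 1 (up to 0.18). Pkp2, a desmosome plaque protein of simple and basal cells, was at 12.95, 13.47 and 12.73 in BEGM and 11.29, 11.22 and 11.36 in EpiX. It fell by 1.76 ± 0.21 on the log2 scale (adjusted p = 0.00828, and 0.0597 without EpiX array 2). The envelope linkers Ppl and Evpl had BEGM array 1 among the EpiX arrays, as Krt13 had: Evpl was at 11.72, 9.10 and 8.58 in BEGM and 11.86, 11.30 and 10.37 in EpiX. Neither passed with all arrays (adjusted p = 0.43 and 0.382), and both did without BEGM array 1 (0.00864 and 0.0143).

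Of the intermediate filament genes outside the keratin family, Vim fell by more than any keratin. Of 18 listed 17 were measured, with a median difference of -0.20. Of these 0 rose, 3 fell, beside 3.15% of all genes, and 14 did not pass. Vim, the filament of mesenchymal and migrating cells, was at 14.08, 15.83 and 17.18 in BEGM and 6.68, 7.96 and 11.68 in EpiX, and fell by 6.92 ± 1.33 (SE; adjusted p = 0.0321). No EpiX array reached the lowest BEGM array, and the call was lost without any single array other than BEGM array 1 or EpiX array 3 (adjusted p up to 0.144). Nes, a filament of progenitor and activated cells, was at 7.35, 8.91 and 8.88 in BEGM and 5.05, 4.75 and 4.87 in EpiX, and fell by 3.49 ± 0.41 (adjusted p = 0.00828, and 0.0597 without EpiX array 2). All EpiX arrays of Nes lay under the background median, and against that median the fall was at least 5.09-fold. Nefh, a neurofilament chain, fell by 1.63 ± 0.29 (adjusted p = 0.0261), a call lost without BEGM array 2, EpiX array 1 or EpiX array 2 (up to 0.128). Its EpiX arrays also lay under the background median, and the fall against that median was 2.02-fold. BEGM arrays 2 and 3 of Nefh, at 6.77 and 6.72, lay within the range of the background probe sets. The value of 2.02-fold is therefore not a firm lower bound.

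Vim and Krt18, which lay above the background median on all arrays, differed in their spread. Vim spread widely within each medium and was highest on array 3 in both. The arrays of Krt18 lay within 0.30 in BEGM and within 0.89 in EpiX. Krt18 was highest on array 2 in BEGM and, like Vim, on array 3 in EpiX. The lamins, filaments of the nucleus, did not pass: Lmna differed by 0.35 ± 0.21 and Lmnb1 by 0.76 ± 0.28 (adjusted p = 0.393 and 0.167).

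**Figure D5:**
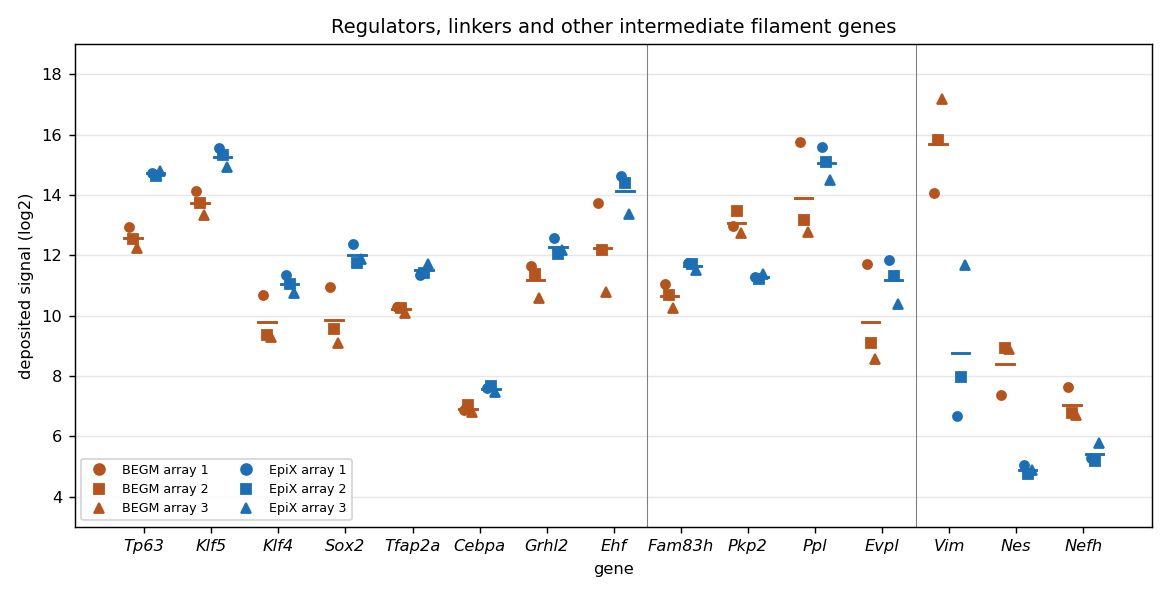
Signal (log2) on each of the 6 arrays, with a bar at the mean of 3 arrays, for 8 regulators of keratin genes, 4 filament linkers and 3 other intermediate filament genes, in that order. Tp63 lies above 14.6 on all EpiX arrays and below 13 on all BEGM arrays, and Nes lies above 7 in BEGM and near 5 in EpiX.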

How the data were processed

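Tracheal basal cells were profiled on 6 arrays, 3 per medium. The authors' deposited log2 values cover 24834 probe sets on each array. The Transcriptome Analysis Console is named in the submitters' processing notes, and the normalization is not given in the sources used here. Base 2 was taken from the range (2.62 to 18.66); scale, base and centring stay unknown. The platform annotation, which can be old, gave a single gene symbol to 15049 probe sets, giving 15037 genes. Probe sets with no symbol or with several were left out. All 39 keratin symbols matched RefSeq by gene ID. Depth does not apply, and the number of arrays limits precision.

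All these genes were fitted by medium alone with limma 3.58.1 (statmod 1.5.0, R 4.3.3), with no filter on signal. Plots were made with matplotlib 3.10.9. The p-values were 2-sided and Benjamini-Hochberg adjusted over all genes. Code was tested on simulated data. Alternatives were a fixed or random block for the sample number, quantile or median scaling, a dimness filter, trended variance, array weights, mean probe sets and leaving out arrays. The comparison with background probe sets was added after the data were seen; values under an array's background median were raised to it for bounds.

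Members, groups and lists were chosen with earlier results of these data known; Krt6c and Krt88 joined their groups, and the pair Krt6c and Krt17 was added, after the platform symbols were seen. Values were named for each measured keratin of the basal, injury, hillock, simple and cornifying groups and for called members; non-members were called genes of the regulator, linker and filament lists, up to 4 per list, plus Tp63 and Vim. Krt7, Krt23, Krt24, Krt42, Krt75, Krt80, Krt82, Krt90, Cebpa, Klf4, Ppl, Evpl, Lmna, Lmnb1, Ngfr, Col1a1, Cnn1 and Acta2 were singled out after their values were seen or as checks.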

Additional observations from a re-analysis of the deposited data

How the results depend on the processing

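The 17 alternatives gave 493 values for 29 named genes, of which 420 kept direction and side of the threshold, 53 lost the call, 14 gained it and 6 changed sign. The sign changes were those of Krt9 (-0.067 with array weights, and -0.24 to 0.31 when arrays were left out) and Krt80 (-0.19 to 0.62 when arrays were left out). The count of all genes called (869) was 1987 with array weights and 0 to 2089 when arrays were left out. The keratins called higher numbered 4 with array weights (Krt13, Krt15, Krt23 and Krt6c) and 0 to 5 when arrays were left out; those called lower numbered 0 to 1 when arrays were left out and 2 with the random block (Krt18 and Krt75). Leaving out arrays also leaves fewer samples; otherwise the cause was not tested. No partner shift moved by more than its replicate SD under any alternative run. No label says that a sample number stands for a line, and after subtracting each medium's mean, arrays sharing a number correlated across genes at 0.32, -0.014 and 0.32 for numbers 1, 2 and 3, BEGM array 2 correlating best with EpiX array 3 (0.12). With the number as a replicate block, 1252 genes were called (592 higher and 660 lower), with 4 keratins higher (Krt13, adjusted p = 0.0284; Krt15, 0.000703; Krt23, 0.0159; Krt4, 0.026) and 2 lower (Krt18, 0.00224; Krt75, 0.0379), and Cebpa was not (0.0519; 0.0916 with trended and robust variance). No detection calls were used. Signals under the background median bound a difference from below only where the other medium lies clear of the background probe sets.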

Other observations

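Keratin-associated proteins, which cross-link keratins in the hair shaft and lie outside the keratin rule, were also measured. Of 16 such genes, a set added after the keratins were seen, 0 were called by limma in either direction, beside 5.78% of all genes. At an unadjusted limma p under 0.05 there were 0, beside 22.5% of all genes. Of the 16, 10 lay under the background median on all arrays, beside 38.6% of all genes. Their differences ran from -0.55 to 0.29 with a median of -0.05. The lowest was that of Krtap10l2, with signals of 7.39, 8.18 and 8.11 in BEGM against 7.21, 7.47 and 7.34 in EpiX (adjusted p = 0.223, and 0.0223 without BEGM array 1). The epithelial adhesion genes Epcam (-0.44 ± 0.27, SE; adjusted p = 0.404) and Cdh1 (-0.63 ± 0.17; adjusted p = 0.087) did not pass. Krtcap3, named as a keratinocyte-associated protein, was at 10.26, 9.43 and 8.47 in BEGM and 10.01, 10.16 and 9.66 in EpiX (0.56 ± 0.42, SE; adjusted p = 0.505).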
